A study of Arabidopsis thaliana with 12 samples.

Results

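FAMA (AT3G24140), SPEECHLESS (SPCH, AT5G53210) and TRIPTYCHON (TRY, AT5G53200) are 3 Arabidopsis genes whose products decide the fate of epidermal cells. They were chosen by locus, with earlier results of these data known, as the probe sets that the ATH1 array's annotation table gives to these loci. Each has 1 probe set, so they make up 3 of the 22746 probe sets tested and 3 of 13286 named loci. FAMA lies on chromosome 3, and SPCH and TRY lie on chromosome 5. Whole seedlings of Arabidopsis thaliana were profiled on 12 arrays, 3 biological replicates per group by their labels. The transgenic line, ESTpro:FUS3-strong line 2-8 (called FUS3 here), expresses the seed transcription factor FUS3 ectopically from an estradiol-inducible promoter, and WT is the wild type. FUS3 seedlings without sucrose, WT seedlings without sucrose, FUS3 seedlings with 1.5% sucrose and WT seedlings with 1.5% sucrose were all 8 days old and germinated on the same Murashige and Skoog-based medium. For line 2-8 this medium held 5 µM estradiol. The labels do not settle whether WT seedlings received it, so in each FUS3 comparison the effect of the agent itself cannot be told apart from that of the transgene. Only 1 line carries the transgene, and the probe set of FUS3 itself was not analysed here.

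In the leaf epidermis, SPCH, MUTE and FAMA are related basic helix-loop-helix factors that act in that order. SPCH starts the stomatal lineage, MUTE ends the self-renewing divisions of its stem-like cells, and FAMA halts division at the end of the lineage and gives the resulting cells guard cell identity. FAMA is also needed for myrosin cells, the glucosinolate-degrading cells of the leaf veins. TRY is a small single-repeat MYB protein that moves from a developing trichome, or leaf hair, into its neighbours and keeps them from becoming trichomes too. The same family acts in root hair patterning.

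Each value below is the signal of the probe set in linear units after the authors had scaled all arrays to a common level, and array medians lay between 375.2 and 443.4. Differences are on the scale of log2(signal + 16), which understates the change of a dim gene such as TRY. They come from 1 limma model of the 4 groups, with a moderated standard error (SE) and a p-value adjusted after Benjamini and Hochberg over all 22746 probe sets. A gene was called at an adjusted p under 0.05. Signals of different probe sets depend on their probes and are not compared with each other as levels.

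With sucrose in the medium, FAMA and TRY fell in FUS3 seedlings relative to WT seedlings, and SPCH was not called. FAMA read 156, 132 and 80.9 in the 3 FUS3 replicates with sucrose, against 461, 424 and 587 in WT with sucrose. All FUS3 arrays were thus below all WT arrays; arrays of these groups failed to overlap, in either direction, for 49.4% of all probe sets. The means were 123.0 ± 38.5 in FUS3 and 490.4 ± 85.7 in WT (SD, n = 3 each), a level 3.99-fold higher in WT. The difference was -1.89 log2 units (SE 0.21, 95% interval -2.35 to -1.44, limma adjusted p = 6.75e-06). Among all probe sets of an array, FAMA stood at the 26.0 to 33.0 percentile in FUS3, against the 50.5 to 57.3 percentile in WT.

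TRY read 14.2, 36.1 and 19.2 in FUS3 seedlings with sucrose, against 132, 94.95 and 111 in WT seedlings with sucrose. The groups again did not overlap, and all 3 FUS3 values were among the dim signals of their arrays. They stood at the 11.3 to 18.3 percentile, against the 28.7 to 32.0 percentile in WT. The means were 23.2 ± 11.5 in FUS3 and 113 ± 18.4 in WT (SD, n = 3 each). The difference was -1.74 log2 units (SE 0.24, 95% interval -2.25 to -1.24, limma adjusted p = 4.07e-05). Detection calls were not analysed here, so whether the inhibitor was above background in FUS3 seedlings with sucrose was not tested, and no fold is given.

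SPCH, the factor that opens the lineage, read 267, 322 and 246 in FUS3 seedlings with sucrose, against 301, 290 and 174 in WT seedlings with sucrose. The groups overlapped, and their means were 278 ± 39.3 in FUS3 and 255 ± 70.0 in WT (SD, n = 3 each). The difference of 0.15 log2 units (SE 0.22, adjusted p = 0.651) had a 95% interval of -0.32 to 0.62, which holds neither the FAMA nor the TRY value. Of the 3 genes 2 were thus called lower, in a comparison in which 19.6% of all probe sets were called lower and 38.5% were called either way. Since the 3 genes were chosen with earlier results of these data known, such counts of them are descriptions and not tests. Ranked by difference, 215 of the 22746 probe sets lay below FAMA.

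**Figure D1:**
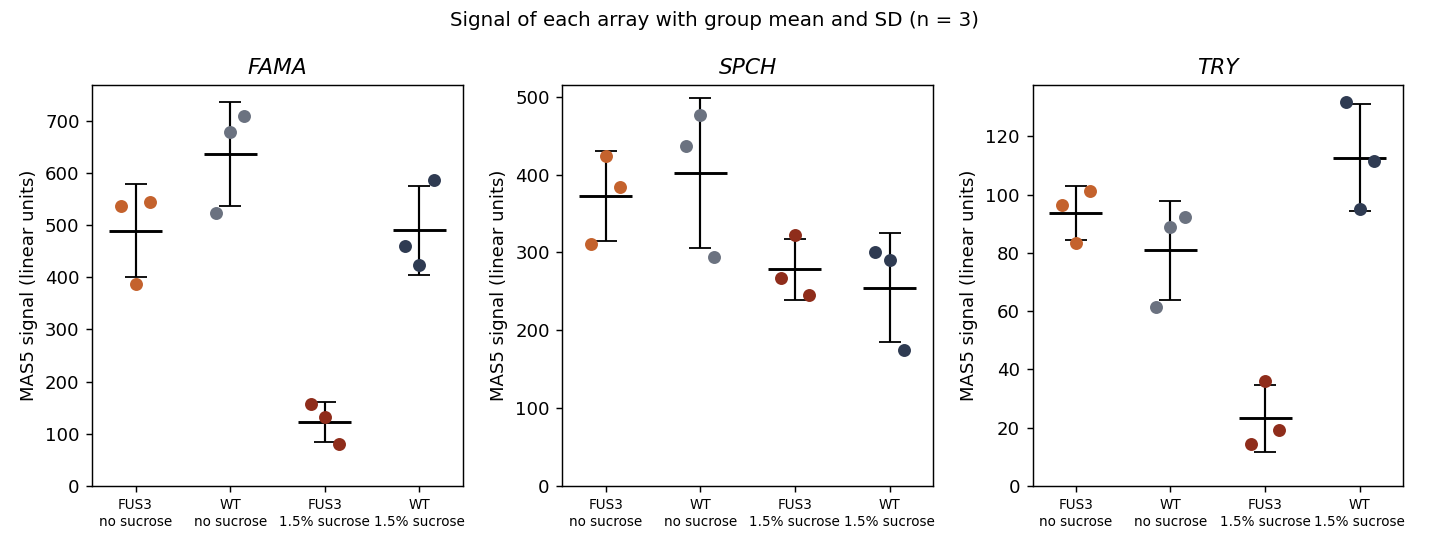
Signal of FAMA, SPCH and TRY in linear MAS5 units (vertical axes, from 0) on each of the 12 arrays; points are arrays, horizontal lines group means and bars the SD of 3 replicates. The FUS3 group with 1.5% sucrose lies below the other 3 groups in the FAMA and TRY panels, at means of 123.0 and 23.2, and within their range in the SPCH panel, at 278.

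Without sucrose none of the 3 genes was called between the lines (0 of 3, against 16.5% of all probe sets called either way). FAMA read 538, 387 and 544 in FUS3 seedlings, against 523, 678 and 709 in WT seedlings, and the groups overlapped. Its means were 489.7 ± 88.9 in FUS3 and 637 ± 99.7 in WT (SD, n = 3 each), with a difference of -0.37 (SE 0.21, 95% interval -0.83 to 0.08, adjusted p = 0.274). With 3 arrays a group, a FAMA difference of up to -0.83 lay within that interval, and without single arrays the value ran from -0.50 to -0.22.

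SPCH had 311, 424 and 384 in FUS3 seedlings without sucrose, against 437, 477 and 294 in WT seedlings without sucrose. The lowest and the highest of these 6 arrays were both WT, so the FUS3 values lay inside the WT range; the difference was -0.09 (SE 0.22, 95% interval -0.56 to 0.38, adjusted p = 0.846). TRY had 96.4, 83.4 and 101 in FUS3, against 61.3, 88.9 and 92.3 in WT. Here the FUS3 mean, 93.7 ± 9.27, stood above the WT mean, 80.8 ± 17.0 (SD, n = 3 each), with overlapping arrays and a difference of 0.19 (SE 0.24, 95% interval -0.31 to 0.70, adjusted p = 0.656). Without single arrays this TRY difference ran from 0.039 to 0.28 and was never called.

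The interaction tests whether the FUS3 difference with sucrose departs from that without it. It was called for FAMA, at -1.52 (SE 0.30, 95% interval -2.17 to -0.87, limma adjusted p = 0.00201), and for TRY, at -1.94 (SE 0.33, 95% interval -2.65 to -1.22, adjusted p = 7.04e-04). For SPCH it was 0.24 (SE 0.31, 95% interval -0.43 to 0.90, adjusted p = 0.650) and was not called, with 0.0008 to 0.44 over the single omissions. These 2 of 3 genes compare with 13.3% of all probe sets whose interaction was called on the lower side and 23.1% called either way. The interaction is built from the same 12 arrays as the pairwise comparisons and is not a separate observation of the genes.

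Within the FUS3 line, FAMA and TRY fell with sucrose (2 of 3 genes called lower, against 17.5% of all probe sets). Neither gene's arrays overlapped between the groups, as for 49.2% of all probe sets. FAMA had a difference of -1.89 (SE 0.21, adjusted p = 6.26e-06), since its 80.9 to 156 in FUS3 with sucrose lay under the 387 to 544 of FUS3 without it. TRY had a difference of -1.52 (SE 0.24, adjusted p = 1.29e-04), with 14.2 to 36.1 in FUS3 with sucrose against 83.4 to 101 in FUS3 without. SPCH was not called in that line, at 246 to 322 with sucrose against 311 to 424 without, a difference of -0.40 (SE 0.22, 95% interval -0.87 to 0.07, adjusted p = 0.172).

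In WT seedlings SPCH was the 1 of the 3 genes that was called with sucrose, on the lower side, where 10.1% of all probe sets were called. Its values with sucrose, 301, 290 and 174, overlapped those without, 437, 477 and 294, and the difference was -0.64 (SE 0.22, 95% interval -1.11 to -0.17, adjusted p = 0.0454). That call rests on single arrays. It was lost without WT replicate 3 with sucrose (-0.40, adjusted p = 0.198) and without WT replicate 1 or 2 without sucrose (adjusted p = 0.145 and 0.167). It was also lost, by smaller margins, without FUS3 replicate 2 or 3 without sucrose or FUS3 replicate 1 or 3 with sucrose (adjusted p between 0.0512 and 0.0587). FAMA was not called in WT, at 424 to 587 with sucrose against 523 to 709 without (-0.37, SE 0.21, 95% interval -0.82 to 0.09, adjusted p = 0.241). TRY was not called either, although all 3 WT arrays with sucrose, at 94.95 to 132, exceeded the 3 without, at 61.3 to 92.3 (0.42, SE 0.24, 95% interval -0.09 to 0.92, adjusted p = 0.231). Arrays of these groups failed to overlap for 39.6% of all probe sets.

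**Figure D2:**
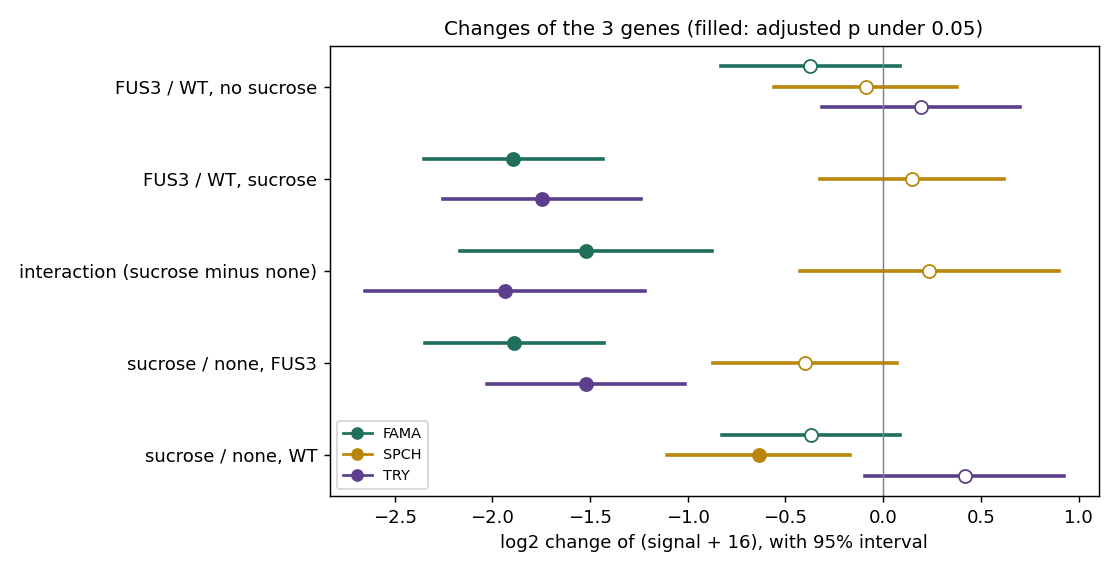
Differences of FAMA, SPCH and TRY in 5 comparisons on the scale of log2(signal + 16) (horizontal axis), with 95% intervals; filled points passed an adjusted p of 0.05. FAMA and TRY stand at -1.89 and -1.74 for FUS3 over WT with sucrose while their intervals without sucrose include 0, and SPCH is filled for sucrose in WT, at -0.64.

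Ordered by mean signal, FAMA was highest in WT without sucrose (637), then WT with sucrose (490.4) and FUS3 without sucrose (489.7), and lowest in FUS3 with sucrose (123.0). Neither of the first 2 steps was called (adjusted p = 0.241 and 0.993), and the last step was. TRY ran from WT with sucrose (113) through FUS3 without sucrose (93.7) and WT without sucrose (80.8) to FUS3 with sucrose (23.2), and its last step was called, at -1.33 for FUS3 with sucrose against WT without (SE 0.24, adjusted p = 2.90e-04). The other 2 steps of TRY were not called (adjusted p = 0.586 and 0.656). SPCH ran from WT without sucrose (403) through FUS3 without sucrose (373) and FUS3 with sucrose (278) to WT with sucrose (255). No neighbouring groups in that order were called apart (adjusted p = 0.846, 0.172 and 0.651).

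Across the diagonal of the design, FUS3 seedlings with sucrose had less FAMA than WT seedlings without sucrose (-2.26, SE 0.21, adjusted p = 6.29e-07), as they had less TRY, so 2 of 3 genes were called lower where 21.0% of all probe sets were. SPCH was not called there (-0.49, SE 0.22, 95% interval -0.96 to -0.02, adjusted p = 0.0820), but it was with a replicate block (adjusted p = 0.0345), quantile normalization (0.0117) or array medians subtracted (0.0168). Between FUS3 without sucrose and WT with sucrose 0 of 3 genes were called, against 17.6% of all probe sets called either way. SPCH did not overlap between those groups, at 311 to 424 in FUS3 and 174 to 301 in WT (0.55, SE 0.22, adjusted p = 0.105, and 0.0468 with a replicate block), as was the case for 31.6% of all probe sets.

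Differences taken within each array set the late stomatal factor against the early one. The log2(signal + 16) of FAMA minus that of SPCH averaged -1.11 ± 0.37 in FUS3 seedlings with sucrose and 0.93 ± 0.64 in WT seedlings with sucrose (SD, n = 3 each), without overlap. The difference of -2.04 had an exact two-sided permutation p of 0.1, the smallest that 3 against 3 arrays allow. Against MUTE, the middle factor, FAMA averaged 0.81 ± 0.52 in FUS3 and 2.50 ± 0.25 in WT, a difference of -1.69 (exact permutation p = 0.1, no overlap). MUTE was dim in both lines, and whether it was above background was not tested. TRY against its chromosomal neighbour SPCH averaged -2.94 ± 0.27 in FUS3 and -1.05 ± 0.44 in WT, a difference of -1.89 (exact permutation p = 0.1, no overlap). FAMA against TRY differed by -0.15 between the lines with sucrose (exact permutation p = 0.8), with overlapping arrays. Without sucrose FAMA against TRY differed by -0.57 between the lines, and in WT by -0.78 between seedlings with and without sucrose, both without overlap (exact permutation p = 0.1 each). Those p-values are unadjusted and belong to 24 such comparisons; they describe within-array differences beside the fit across all probe sets.

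The rest of the stomatal pathway could be followed only in part, since 5 of 36 listed loci were measured by a probe set of their own. With sucrose, 3 of these 5 fell in FUS3 seedlings (FAMA, STOMAGEN and AT1G22690), 2 were not called (SPCH and MUTE) and 0 rose, where 19.6% of all probe sets were called lower. Leaving out FAMA and SPCH, 2 of 3 fell. The median difference of the 5 was -0.29, against 0.01 over all probe sets. MUTE itself had 61.4 ± 8.41 in FUS3 and 74.3 ± 18.4 in WT with sucrose (SD, n = 3 each), a difference of -0.21 (SE 0.24, adjusted p = 0.559). It was also dim without sucrose, at 64.3 in FUS3 and 87.8 in WT, and whether MUTE was above background was not tested. STOMAGEN, the peptide that mesophyll cells secrete to promote stomata, had 1426 ± 94.2 in FUS3 and 1756 ± 191 in WT with sucrose. Its small difference of -0.29 was called (SE 0.10, adjusted p = 0.0282), but not without FUS3 replicate 1 or 2 or WT replicate 1 or 3 with sucrose (adjusted p = 0.0562, 0.108, 0.120 and 0.0736), nor with no moderation (0.0554) or no variance trend (0.0594). The interaction of STOMAGEN was -0.51 (SE 0.14, adjusted p = 0.0156).

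The largest of these differences belonged to AT1G22690, the 1 measured of 12 loci on the list for mature guard cells, the end product of the lineage. Its signal was 1473 ± 68.1 in FUS3 seedlings with sucrose and 6816 ± 749 in WT seedlings with sucrose (SD, n = 3 each), while without sucrose it was 9060 ± 532 in FUS3 and 8001 ± 735 in WT. The difference with sucrose was -2.19 (SE 0.09, adjusted p = 1.81e-10) and the interaction was -2.37 (SE 0.13, adjusted p = 3.13e-08). Without sucrose 0 of the 5 stomatal genes were called between the lines, where 16.5% of all probe sets were, with a median difference of -0.09, against 0.02 over all probe sets. Since whole seedlings were used, fewer cells that express a gene and less of its RNA per cell cannot be told apart, for FAMA, TRY or any gene named here.

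A further 3 genes were measured on lists of 25 loci added after the annotation was read. AGL16 and BLUS1 came from a stomatal list, and bHLH94 from a list of FAMA relatives. All 3 fell in FUS3 seedlings with sucrose, where 19.6% of all probe sets were called lower. Their median was -0.71, against 0.01 over all probe sets. bHLH94, a relative of FAMA in the same helix-loop-helix subgroup, had 52.7 ± 20.3 in FUS3 and 129 ± 7.30 in WT with sucrose (-1.12, SE 0.22, adjusted p = 0.00119). Its signal in FUS3 was dim, and whether it was above background was not tested. BLUS1, a guard cell kinase of the blue-light opening response, had 208 ± 11.7 in FUS3 and 354 ± 58.9 in WT (-0.71, SE 0.15, adjusted p = 0.00149). The MADS-box gene AGL16 had 538 ± 35.9 in FUS3 and 800 ± 77.7 in WT (-0.56, SE 0.10, adjusted p = 5.71e-04). None of these 3 had a called interaction (adjusted p = 0.133, 0.380 and 0.285), although that of bHLH94 was called without FUS3 replicate 1 with sucrose (-0.94, adjusted p = 0.0376). Of the 3, AGL16 was also called without sucrose, at -0.32 (SE 0.10, adjusted p = 0.0449). That call was lost without any 1 of 8 arrays, the 3 of FUS3 without sucrose, FUS3 replicate 1 or 3 with sucrose, WT replicate 1 or 2 without sucrose and WT replicate 3 with sucrose (adjusted p between 0.0541 and 0.166). It was also lost with the replicate block (0.0535), no variance trend (0.0583) and the compared arrays alone (0.0676). BLUS1 was called without sucrose with array medians subtracted (adjusted p = 0.0368) or the dimmest probe sets left out (0.0375).

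**Figure D3:**
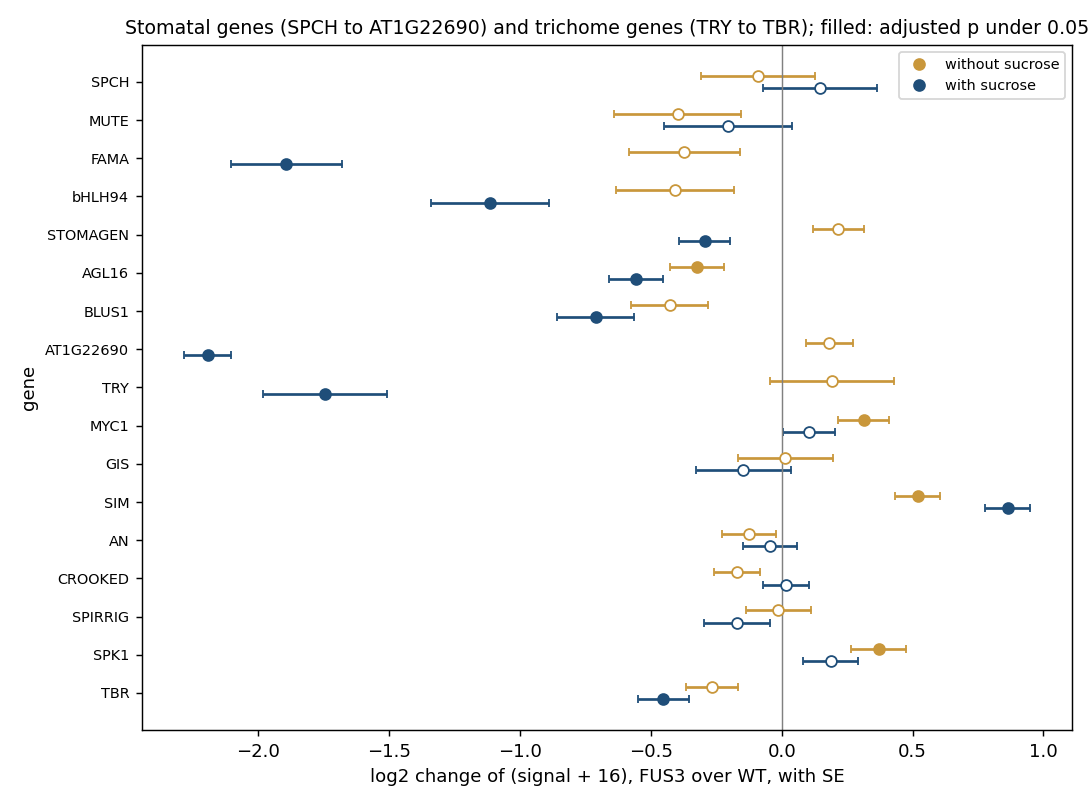
Differences of FUS3 over WT on the scale of log2(signal + 16), with SE, without and with sucrose. Upper rows are the 8 measured genes of the stomatal lists and the list of FAMA relatives (bHLH94). Lower rows are the 9 measured trichome genes. Filled points passed an adjusted p of 0.05. With sucrose 6 of the 8 genes in the upper rows, FAMA and bHLH94 among them, are filled, all to the left of 0. In that comparison 19.6% of all probe sets were called lower. With sucrose the filled trichome genes are TRY and TBR on the left and SIM on the right. Without sucrose SIM, MYC1 and SPK1 are filled, on the right.

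The trichome genes did not move one way. Of 30 listed loci 5 were measured, and with sucrose 1 fell in FUS3 seedlings (TRY), 1 rose and 3 were not called, so 2 of 5 were called where 38.5% of all probe sets were, with a median difference of -0.04, against 0.01 over all probe sets. The gene that rose was SIAMESE (SIM), a cyclin-dependent kinase inhibitor that lets trichome cells replicate DNA without dividing. SIM had 2303 ± 224 in FUS3 and 1256 ± 75.9 in WT with sucrose (0.86, SE 0.09, adjusted p = 2.01e-06). Without sucrose it had 1594 ± 95.9 in FUS3 and 1107 ± 43.9 in WT (0.52, SE 0.09, adjusted p = 9.33e-04), and its interaction of 0.34 was not called (adjusted p = 0.0553). The SIM interaction was called with the replicate block (adjusted p = 0.0326), quantile normalization (0.0374) or the dimmest probe sets left out (0.0482). It was also called without FUS3 replicate 2 without sucrose (0.0488), FUS3 replicate 1 with sucrose (0.0215) or WT replicate 3 with sucrose (0.0438). TRY and SIM were thus called in opposite directions in the same seedlings. MYC1, a partner of the MYB activators that TRY competes with, had 692 ± 40.01 in FUS3 and 643 ± 12.6 in WT with sucrose (0.10, SE 0.10, adjusted p = 0.452). Without sucrose MYC1 was called, at 0.31 (SE 0.10, adjusted p = 0.0424). However, 9 of the 12 single omissions ended that call, all but those of the replicates numbered 2 of FUS3 with sucrose, WT without sucrose and WT with sucrose (adjusted p between 0.0524 and 0.169), as did quantile normalization (0.0671), array medians subtracted (0.0845) and the compared arrays alone (0.0992).

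GIS, a zinc finger regulator of trichome initiation, and ANGUSTIFOLIA (AN), which acts in trichome branching, were not called with sucrose, at -0.15 (SE 0.18, adjusted p = 0.579) and -0.04 (SE 0.10, adjusted p = 0.787). Of 17 further trichome loci, added after the annotation was read, 4 were measured, and 1 of them fell with sucrose, the trichome cell wall gene TBR, with 1016 ± 104 in FUS3 and 1396 ± 134 in WT (-0.45, SE 0.10, adjusted p = 0.00200). CROOKED, SPIRRIG and SPK1, which act in trichome shape, were not called with sucrose, at 0.02, -0.17 and 0.19 (adjusted p = 0.905, 0.319 and 0.182). SPK1 was called without sucrose, at 0.37 (SE 0.10, adjusted p = 0.0259), and not without FUS3 replicate 1 or 2 or WT replicate 2 or 3 of those groups (adjusted p = 0.0976, 0.0849, 0.0561 and 0.103) or with the compared arrays alone (0.0621).

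Markers of other cell types and processes moved in the same arrays, and their part in the FAMA and TRY differences was not tested. The epidermal receptor kinase ACR4, the 1 measured of 6 epidermal loci, was higher in FUS3 seedlings with sucrose, with 420 ± 50.8 in FUS3 and 242 ± 13.0 in WT (0.75, SE 0.14, adjusted p = 7.62e-04). All 5 measured of 10 photosynthesis loci fell with sucrose, where 19.6% of all probe sets were called lower, among them the photosystem gene PSAN, with 8216 ± 802 in FUS3 and 23797 ± 385 in WT (-1.54, SE 0.09, adjusted p = 7.15e-09), LHCB4.1 (-1.18) and SBPASE (-0.87). The leaf gene YAB3, 1 measured of 13 loci for leaf primordia, was higher (0.32, SE 0.08, adjusted p = 0.00810). So were both measured of 5 root hair loci, EXPA7 (0.88) and EXPA18 (0.57), where 38.5% of all probe sets were called either way. Both were also called higher without sucrose, at 0.84 to 0.95, where 16.5% of all probe sets were called either way, and neither had a called interaction. The DNA replication gene MCM7, the 1 measured of 13 cell division loci, was not called with sucrose (0.14, SE 0.09, adjusted p = 0.267) and rose without it (0.49, SE 0.09, adjusted p = 0.00215). The array's control for large-subunit (25S) rRNA had a signal of 9916 ± 701 in FUS3 and 3491 ± 1023 in WT with sucrose, and 2089 ± 478 in FUS3 and 2491 ± 455 in WT without. The ratio of 3′ to 5′ signal of GAPDH, a gauge of RNA integrity, lay between 0.79 and 1.19 in FUS3 and between 0.92 and 1.26 in WT with sucrose.

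TRY and SPCH are direct neighbours, with 0 annotated genes between them in the TAIR10.1 gene table, yet TRY was called lower in FUS3 seedlings with sucrose and SPCH was not. On the far side of TRY, the next gene is the sugar transporter SWEET3, which had 184 ± 24.0 in FUS3 and 32.6 ± 22.8 in WT with sucrose (2.18, SE 0.33, adjusted p = 1.23e-04). Without sucrose SWEET3 had 60.4 ± 18.9 in FUS3 and 48.4 ± 7.07 in WT, with a difference that was not called (0.22, adjusted p = 0.726), and its interaction was 1.96 (SE 0.47, adjusted p = 0.00770). These neighbouring loci were thus called in opposite directions in the same comparison. AT5G53240, the third gene beyond SPCH, was also higher with sucrose, with a dim 36.9 ± 9.31 in FUS3 and 2.28 ± 1.11 in WT (1.52, SE 0.21, adjusted p = 4.68e-05). Not called were AT5G53220 next to SPCH (0.49, adjusted p = 0.1, and 0.0441 with a replicate block), AT5G53150 (0.18, adjusted p = 0.219), AT5G53140 (0.11, adjusted p = 0.311) and AT5G53310 (-0.14, adjusted p = 0.276).

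Around FAMA, 6 neighbours were measured, and 1 of them was called with sucrose, where 38.5% of all probe sets were called either way. This was AT3G24180, on the higher side (0.82, SE 0.13, adjusted p = 1.25e-04). It had 1655 ± 47.0 in FUS3 and 937 ± 133 in WT (SD, n = 3 each). The gene directly before FAMA in the table, AT3G24130, was dim in both lines, at 9.22 ± 7.09 in FUS3 and 22.7 ± 9.33 in WT with sucrose, and was not called (-0.63, SE 0.43, adjusted p = 0.280). The others, AT3G24120, AT3G24110, AT3G24150 and GR1, lay between -0.27 and 0.09 and were not called.

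**Figure D4:**
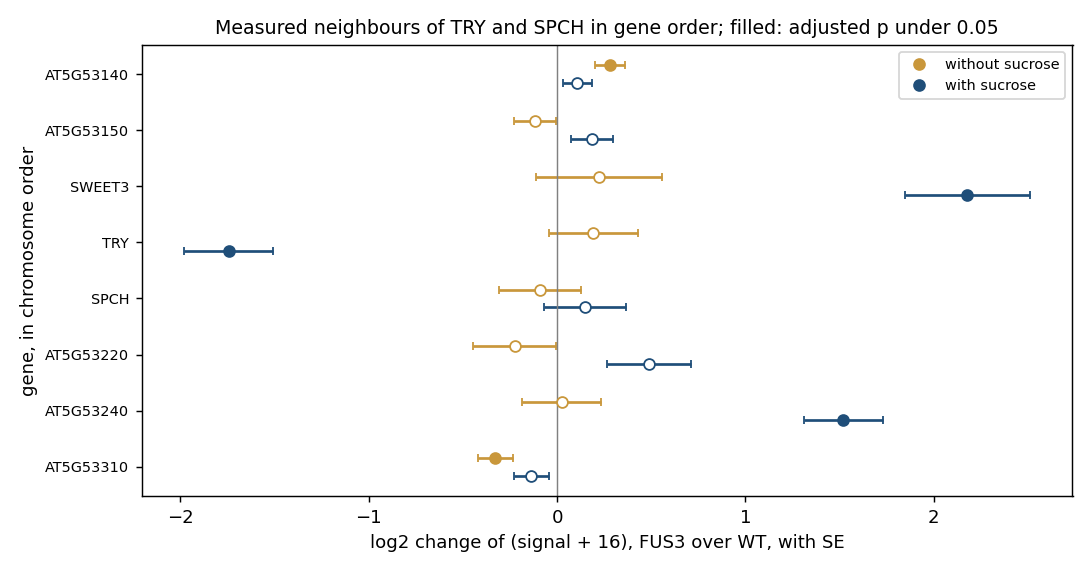
Differences of FUS3 over WT on the scale of log2(signal + 16), with SE, for TRY, SPCH and 6 measured genes around them in chromosome order from top to bottom (not to scale), without and with sucrose; filled points passed an adjusted p of 0.05. With sucrose SWEET3 at 2.18 and TRY at -1.74 lie on opposite sides of 0 and SPCH lies near it.

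The genes whose pattern over the 12 arrays was most like that of each member were found by Pearson's r of log2(signal + 16), among the named genes (2193 for FAMA and TRY, 2194 for SPCH) that reached a group mean of 100 and spanned 1 log2 unit over the 4 groups. These r describe arrays that share groups and replicates and carry no test. For FAMA they were AT1G35350 (r = 0.98), the multicopper oxidase gene LPR2 (0.98), AT1G62250 (0.97), AT5G35970 (0.97) and AT5G25840 (0.97). AT1G35350 had 220 ± 56.4 in FUS3 and 1141 ± 134 in WT with sucrose, against 1100 ± 115 in FUS3 and 1493 ± 277 in WT without. For TRY they were AT5G50915, AT5G48490, AOR, an oxidoreductase, and AT2G19650 (0.95 each), and AT3G20450 (0.94). AT5G50915 had 102 ± 19.2 in FUS3 and 410 ± 77.9 in WT with sucrose, against 297 ± 37.0 in FUS3 and 294 ± 61.8 in WT without.

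For SPCH the likeness was weaker: AT3G54070 (0.83), the glycosyltransferase gene UGT73B1 (0.81), AT5G62720 (0.79), AT4G15680 (0.77) and CCS, the copper chaperone of superoxide dismutase (0.77). SPCH itself spanned less than the 1 log2 unit required of these genes, its largest difference between groups being -0.64. The part of this in the lower r was not tested. UGT73B1 had 562 ± 82.8 in FUS3 and 386 ± 49.1 in WT with sucrose, against 816 ± 54.1 in FUS3 and 1038 ± 71.0 in WT without, so its means were lower with sucrose in both lines, as were those of SPCH. In refits chosen after the data were seen, which genes were among the 5 depended on single arrays. FAMA kept 1 of its 5 without FUS3 replicate 3 with sucrose, SPCH kept 1 without WT replicate 3 with sucrose, and TRY kept 2 without FUS3 replicate 1 or 2 with sucrose, WT replicate 1 without sucrose or WT replicate 1 with sucrose.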

How the data were processed

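The values are gene expression intensities of 12 arrays, 1 linear signal per probe set and array, as deposited by the authors. Per the submitters' processing notes they are MAS5 signals from Affymetrix Expression Console, with no version given. On each array the mean without the top and bottom 2% of signals was 1000.08 to 1000.09, so the arrays had been scaled to 1 level. No precision per signal was analysed, and the number of arrays, 3 a group, limits precision.

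Of 22810 probe sets 64 controls were left out. 16 was added, log2 taken, and the 4 group means fitted over all 12 arrays with limma 3.58.1 in R 4.3.3 (eBayes with a trend), with 7 contrasts. On data simulated for FUS3 against WT with sucrose, the fit called 78 of 100 changes of 1 log2 unit and 96 of 100 of 2 units. For the interaction it called 56 of 100 and 86 of 100. The simulated data held these changes alone, whereas 8761 probe sets were called in the real comparison, so these are not the rates of the real data. Genes come from the array's probe table, which gives 13513 probe sets 1 gene, and names from RefSeq's TAIR10.1 table, where 13436 matched; its coordinates are not printed because the files name no build. Named were the 3 genes and the measured members of the stomatal and trichome lists and of the list of FAMA relatives. Also named were up to 3 called members of other lists, the 3 nearest measured neighbours on each side, and 5 genes of like pattern each. Members and lists (113 loci, 20 measured, with 42 added, 7 measured) were chosen with earlier results of these data known. Array order, batch and scan are not analysed here. Figures were drawn with matplotlib 3.10.9.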

Additional observations from a re-analysis of the deposited data

Results flagged for a closer look

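The interaction of line and sucrose was tested for 51 named genes and called for 24 of them. Among all probe sets 23.1% had a called interaction. Some of the 51 were named for a pattern like that of FAMA, SPCH or TRY, or as called members of other lists. The measured stomatal and trichome list members and the chromosomal neighbours were named whether called or not. The count thus follows in part from the choice of genes and is a description, not a test. Every value here is the interaction on the scale of log2(signal + 16), that is, the FUS3 over WT difference with sucrose minus that without. It was -1.52 for FAMA and -1.94 for TRY. Among the stomatal genes it was -0.51 for STOMAGEN and -2.37 for AT1G22690. The photosynthesis genes PSAN (-1.39), LHCB4.1 (-1.12) and SBPASE (-1.20) also had negative values, and the epidermal ACR4 a positive one of 0.62. The ACR4 call was lost with the replicate block and without any 1 of FUS3 replicates 2 and 3 without sucrose, FUS3 replicates 2 and 3 with sucrose, WT replicates 1 and 3 without sucrose and WT replicates 2 and 3 with sucrose (adjusted p between 0.0568 and 0.103).

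All 5 genes of a pattern like FAMA were called, AT1G35350 at -1.89, LPR2 at -0.79, AT1G62250 at -1.34, AT5G35970 at -1.79 and AT5G25840 at -1.37. The same held for the 5 like TRY, AT5G50915 at -1.88, AT5G48490 at -1.29, AOR at -1.43, AT2G19650 at -1.30 and AT3G20450 at -1.45. Both sets were chosen for their likeness to FAMA or TRY over the same arrays, so these calls largely follow from that choice. Of the 5 like SPCH, UGT73B1 (0.86), AT4G15680 (1.43) and CCS (0.63) were called, although SPCH itself was not. Among chromosomal neighbours it was 0.87 for AT3G24180, 1.96 for SWEET3 and 1.50 for AT5G53240.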

How the results depend on the processing

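Each of the 21 differences of FAMA, SPCH and TRY was refitted with 1 or 64 added, quantile normalization, array medians subtracted, the dimmest 40% of probe sets left out, the compared arrays alone, a replicate block, no variance trend, no moderation, and without each array in turn, 431 refits in all. Direction and call were kept in 407, and 14 of the 21 differences kept both throughout, including FAMA and TRY for FUS3 over WT with sucrose, for sucrose in FUS3 and for the interaction. TRY has no value with the dimmest probe sets left out, because it is one of them, the interactions have none with the compared arrays alone, and since each gene has 1 probe set no other probe set could be tried. The cause of the changes below was not tested. SPCH with sucrose in WT, -0.64, was lost with no moderation (-0.64, adjusted p = 0.114), no trend (0.0717) and the compared arrays alone (0.0951), and ran from -0.84 to -0.40 over the single omissions. SPCH with sucrose in FUS3 was called with quantile normalization (-0.59). SPCH in FUS3 with sucrose against WT without was called with quantile normalization (-0.72), array medians subtracted (-0.69) and the replicate block (-0.49), and ran from -0.69 to -0.36 without single arrays, being called without WT replicate 3 without sucrose (adjusted p = 0.0213) or with it (0.0418). SPCH changed sign without single arrays, at -0.29 to 0.042 between the lines without sucrose and -0.089 to 0.28 with it. FAMA in FUS3 without sucrose against WT with sucrose, -0.0049, turned to 0.087 with quantile normalization and 0.089 with array medians subtracted, and ran from -0.10 to 0.15. Of uncalled list genes that changed sign, GIS without sucrose had -0.17 with quantile normalization, -0.041 with medians subtracted and -0.11 to 0.10 over the omissions; CROOKED with sucrose had -0.012, -0.034 and -0.040 to 0.066; the EXPA7 interaction had 0.014 with 64 added, 0.024 with quantile normalization and -0.28 to 0.066. The MUTE interaction ran from -0.044 to 0.33, AN with sucrose from -0.084 to 0.0064 and its interaction from -0.039 to 0.15, and SPIRRIG without sucrose from -0.13 to 0.050. Refits of the neighbours and of the genes of like pattern, added after the data were seen, kept every called interaction; AT3G24150 with sucrose, uncalled, ran from -0.11 to 0.069.

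Whether replicate numbers pair the samples is not settled, and the main fit did not pair them. Deviations of same-numbered arrays correlated weakly, at -0.0073 to 0.111, with 1 of 18 pairs over 0.1. Their median was 0.0275, against -0.0188 for arrays of different numbers, and 10 of 12 arrays correlated best with one of their own number. With the replicate block SPCH in FUS3 without sucrose against WT with sucrose was called (0.55, adjusted p = 0.0468), and apart from the SPCH value above no other call of the 3 genes changed. Between the lines without sucrose 2418 probe sets were called without WT replicate 1, against 3758. With array medians subtracted the split of calls was 1739 higher and 2091 lower, against 2160 and 1598, between the lines without sucrose; 3257 and 5353, against 4967 and 3972, for sucrose in FUS3; 2333 and 4235, against 3618 and 2301, for sucrose in WT; 4199 and 6816, against 6067 and 4774, for FUS3 with sucrose over WT without; and 2767 and 1542, against 1713 and 2280, for FUS3 without sucrose over WT with it. That scaling moved the median of all probe sets to -0.13 for sucrose in WT, -0.11 for sucrose in FUS3 and -0.15 for FUS3 with sucrose over WT without.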
